A study of Homo sapiens with 6 samples.

Results

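The HSP40 co-chaperones examined here were 10 genes of the DNAJA and DNAJB classes, taken by name from a table of 28058 genes. They were DNAJA1, DNAJA2 and DNAJA4 of class A and DNAJB1, DNAJB2, DNAJB4, DNAJB5, DNAJB6, DNAJB12 and DNAJB14 of class B. All 10 were in the table, and 9 were expressed well enough to be tested. The cells were MDA-MB-231, an established human line of triple-negative breast adenocarcinoma with labelled cell type epithelial, grown in DMEM with fetal bovine serum, and their RNA was sequenced. Cells of the shCTL group (genotype CTL, n = 3 libraries) carried a control short hairpin RNA, and cells of the shHSF1 group (genotype HSF1 shRNA, n = 3 libraries) a hairpin against HSF1, with no other treatment or time given. The labels do not say how many hairpins were used, whether the cells were a pool or 1 clone, or whether replicates were separate cultures, so p-values speak only of how much these libraries vary, and that variation may be technical.

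HSP40 proteins carry a J domain, through which they deliver unfolded client proteins to HSP70 and make HSP70 split ATP and hold the client. Class A members also have a zinc-binding region, which class B members lack. HSF1 is the transcription factor that switches on chaperone genes in stressed cells, and it binds DNA as a trimer on inverted repeats of the letters GAA, the heat shock element. Cancer cells often depend on HSF1 for chaperone supply, and several HSP40 genes are known targets of it.

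Levels are given as RPKM, which divides reads by the gene length in kilobases and by the library's gene-assigned reads in units of 1000000. Reads assigned to genes ranged from 33988307 in shHSF1 3 to 70449758 in shCTL 1, and a tested HSP40 gene had between 420 and 37036 reads in a library. HSF1 lay at 54.1 ± 6.70 RPKM in the shCTL libraries and at 4.52 ± 0.604 RPKM in the shHSF1 libraries (SD, n = 3 each; log2 fold change -3.44, limma adjusted p = 3.78e-06), so the library labels hold for the targeted gene. Of the epithelial markers KRT8 and KRT18 were at no less than 102.81 and 170.86 RPKM in any library, EPCAM reached at least 4.48 RPKM, and CDH1 stayed at or under 0.0422 RPKM. KRT19, also epithelial, was between 29.97 and 62.3 RPKM. VIM, a mesenchymal marker, was at no less than 1891 RPKM. The hormone receptor genes ESR1 and PGR stayed at or under 0.04235 and 0.161 RPKM. Of the leukocyte markers, PTPRC and CD3E stayed at or under 0.0451 and 0.0778 RPKM, but CD68 was between 68.4 and 103 RPKM. Some markers moved with the knockdown: KRT18 (282 to 204 RPKM) and ERBB2 (10.6 to 7.88 RPKM) fell, and KRT7 (0.667 to 4.58 RPKM), EPCAM (4.62 to 8.26 RPKM) and COL1A1 (1.54 to 2.62 RPKM) rose (limma adjusted p = 0.0183, 0.0275, 4.02e-05, 0.00381 and 0.0194). Their part in the HSP40 changes was not tested. Because whole cultures were sequenced, a lower level in fewer cells and less RNA per cell cannot be told apart.

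The promoters of some HSP40 genes hold heat shock element letters, and those stretches are shown here because they are the letters that HSF1 is known to read. RefSeq promoter windows on GRCh38.p14, from 250 bases before to 50 bases after each annotated start, matched all 10 members in 15 windows. They were searched on both strands for 2 GAA units facing each other, GAANNTTC, or facing away, TTCNNGAA, and for 3 alternating units, which contain overlapping matches of both kinds. The 3-unit form was in the windows of 2 members, DNAJA1 and DNAJB6, and in 0.608% of the 27305 genes with a window. The 2-unit form was in a window of 5 members and in 16.2% of all genes. In the lines that follow the letters of the units are in capitals, and positions count from the annotated start, with starts of 1 gene numbered as in the plot of promoter windows.
DNAJB6, positions -139 to -111, chr7:157336865-157336893, plus strand: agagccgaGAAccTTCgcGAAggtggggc
DNAJA1, positions -5 to 24, chr9:33025268-33025296, plus strand: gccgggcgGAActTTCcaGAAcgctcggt
DNAJA1, positions -206 to -183, chr9:33025067-33025090, plus strand: gggctccaGAAgaTTCcacgagcg
DNAJB1, positions -81 to -36 of its second start, chr19:14518433-14518478, minus strand: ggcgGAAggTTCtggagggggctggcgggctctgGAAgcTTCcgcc
DNAJB4, positions -106 to -83 of its second start, chr1:78004833-78004856, plus strand: atttgctgTTCtaGAAagtacaga
DNAJA4, positions -95 to -41 of its second start, chr15:78264467-78264521, plus strand: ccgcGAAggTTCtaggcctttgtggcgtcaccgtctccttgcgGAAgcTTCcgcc

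DNAJB6 and DNAJA1 each had a run of 3 units, DNAJB1 and DNAJA4 each had 2 separate pairs of units, and DNAJB4 had 1 pair. DNAJB1 also had a pair at positions 2 to 9 of another start. The windows of DNAJA2, DNAJB2, DNAJB5, DNAJB12 and DNAJB14 held neither form, which says only that these letters are not in these windows. A match describes letters and was not a measurement of HSF1 binding.

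**Figure D1:**
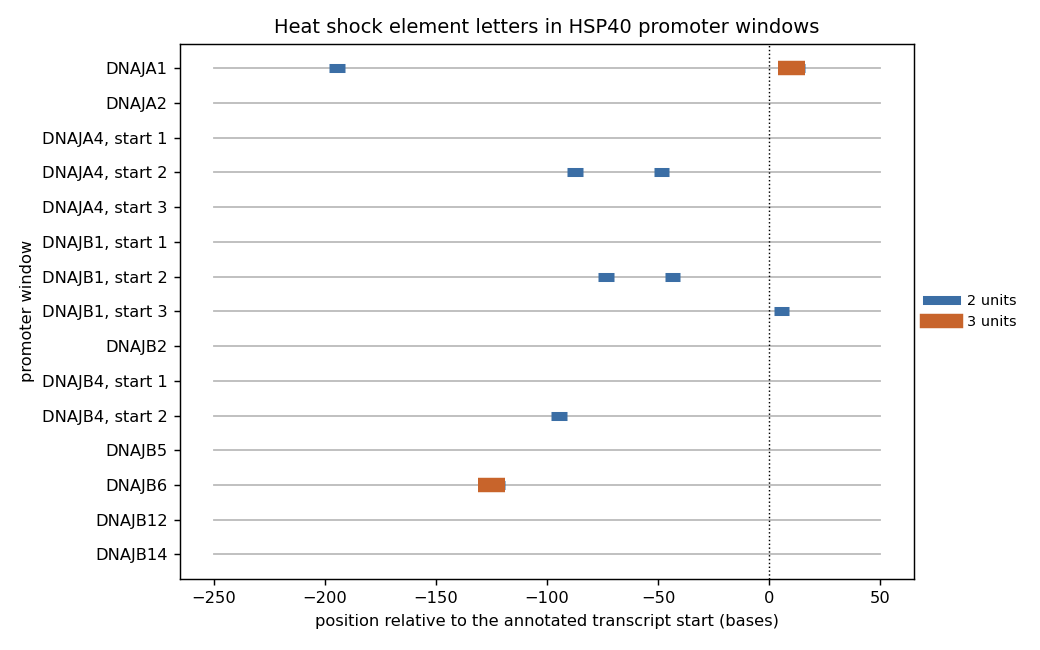
Heat shock element letters in the 15 RefSeq promoter windows of the 10 HSP40 genes, by position from the annotated transcript start in bases; blue bars are 2 units and orange bars 3 units. The 3-unit bars are in DNAJA1, just after the start, and in DNAJB6, upstream of it.

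Levels of the HSP40 genes spread over a wide range, and 3 genes supplied most of the RNA. Summed over the members, RPKM was 528, 470 and 531 in shCTL 1, 2 and 3 and 424, 418 and 436 in shHSF1 1, 2 and 3, so every shHSF1 library had less than every shCTL library. DNAJA1, DNAJB6 and DNAJB1 together made between 82.7% and 85.7% of this sum in shCTL and between 81.3% and 81.6% in shHSF1. In shCTL the order by RPKM was DNAJA1, DNAJB6, DNAJB1, DNAJA2, DNAJB12, DNAJB14, DNAJB4, DNAJB2, DNAJB5 and DNAJA4. Of the neighbours in that order, DNAJB12 and DNAJB14 overlapped between libraries, as did DNAJB14 and DNAJB4. In shHSF1 the first 5 kept their places, DNAJB4 stood above DNAJB14 and DNAJB5 above DNAJB2, with overlapping libraries in both of these pairs.

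**Figure D2:**
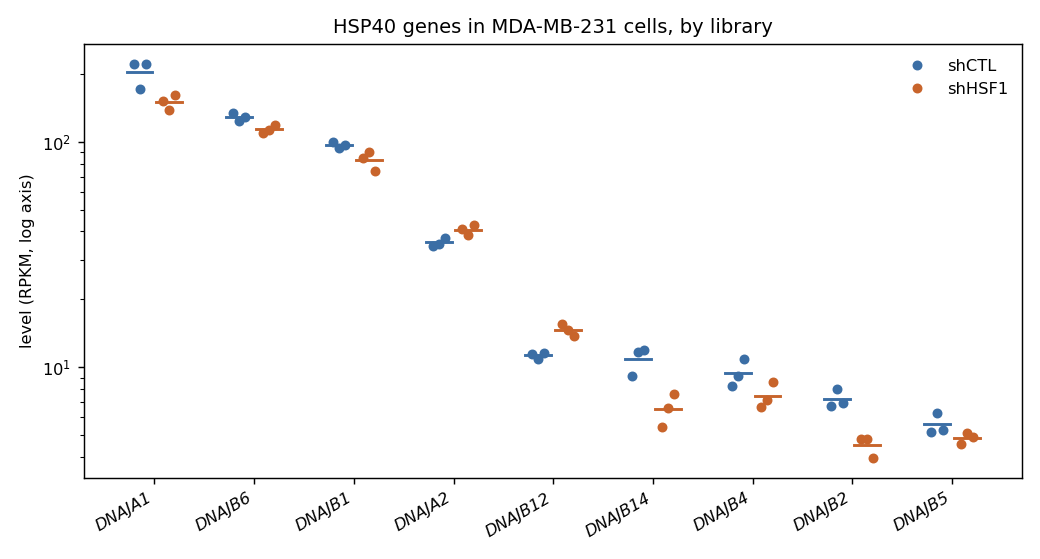
Level of the 9 tested HSP40 genes in RPKM on a log axis, with 1 point per library and a bar at the mean of each group (shCTL blue, shHSF1 orange, n = 3 each). The groups separate for 8 genes and overlap for DNAJB4.

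With HSF1 knocked down, 3 of the 9 tested HSP40 genes fell (DNAJA1, DNAJB2 and DNAJB14), 1 rose (DNAJB12) and 5 were not called. Calls are genes with an adjusted p under 0.05 in limma on log2(RPKM + 0.5), adjusted over all 12433 genes tested, and fold changes on this scale understate those of low genes. Of all tested genes, 16.1% were called lower and 17.7% higher. The median log2 fold change (shHSF1 over shCTL) was -0.22 over the 9 members and 0.04 over all tested genes. Groups did not overlap for 8 of the 9 members, 6 lower and 2 higher. Over all tested genes the groups did not overlap for 47.4%, made up of 21.8% lower and 25.6% higher. An exact permutation test on each of these 8 genes gave a two-sided p of 0.1, and 3 against 3 libraries cannot give less.

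Libraries with the same replicate number varied together, so the differences were also taken within these pairs. Of the 9 tested members, 7 were lower in shHSF1 in all 3 pairs and 2 were higher in all 3 pairs. Of all tested genes, 31.2% were lower and 38.7% higher in all 3 pairs. With the replicate number as a block in limma, 6 members were called lower and 2 higher, against 22.1% and 26.2% of all genes in the same fit. The members called with the block and not without it were DNAJA2, DNAJB1, DNAJB4 and DNAJB6.

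DNAJA1 is the most abundant cytosolic class A partner of HSP70 here and carries a farnesyl group. Its 9 exons lie on hg38 chromosome 9, from 33025203 to 33039907 on the plus strand. Its level was 220, 171 and 222 RPKM in shCTL 1, 2 and 3 and 152, 139 and 162 RPKM in shHSF1 1, 2 and 3. All shHSF1 libraries were below all shCTL libraries, and shCTL 2 lay closest to them. The mean fell from 204 ± 29.0 to 151 ± 11.5 RPKM (SD, n = 3), a log2 fold change of -0.43 (SE 0.117, limma adjusted p = 0.0253). The call was lost without shCTL 1 (limma adjusted p = 0.0696), shCTL 3 (0.0957), shHSF1 1 (0.0621) or shHSF1 2 (0.0912), and within pairs the log2 differences were -0.53, -0.30 and -0.46. With the replicate block the limma adjusted p was 0.00175.

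DNAJA2, the other expressed class A member and an active partner of HSP70 in protein refolding, went the other way from DNAJA1. It held 34.6, 35.3 and 37.5 RPKM in shCTL 1, 2 and 3 and 40.9, 38.4 and 42.5 RPKM in shHSF1 1, 2 and 3. The shHSF1 libraries were all higher, by a log2 fold change of 0.18 (95% interval 0.01 to 0.35), which was not called (limma adjusted p = 0.0927) but was with the replicate block (0.0329). The ratio of DNAJA1 to DNAJA2 in RPKM was 6.37, 4.83 and 5.92 in shCTL and 3.71, 3.61 and 3.80 in shHSF1. These ratios could not overlap, since the groups of the 2 genes separated in opposite directions, so they add no further evidence. DNAJA4, the remaining class A gene, was listed with 1 read in shCTL 3 and 0 reads in each of the other 5 libraries. A count of 3 reads would be between 0.0126 and 0.0262 RPKM for this gene, as counting error only, and DNAJA4 was not tested. It was thus not detected beyond 1 read although its promoter window holds 2 pairs of GAA units.

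DNAJB1, the first HSP40 described in human cells and a heat-inducible one, works with HSPA8 and HSPH1 in taking protein aggregates apart. Its level was 99.3, 93.9 and 96.6 RPKM in shCTL 1, 2 and 3 and 84.5, 90.1 and 74.3 RPKM in shHSF1 1, 2 and 3. Each shHSF1 library was below each shCTL library, with shHSF1 2 close to shCTL 2. The log2 fold change was -0.22 (95% interval -0.42 to -0.03, limma adjusted p = 0.0801), which was not called. It was called with the replicate block (limma adjusted p = 0.0370) and with limma-voom on recovered reads (0.0449), which called 4 members lower and 1 higher, beside 17.9% and 16.5% of all genes. The table sums all transcripts of the gene, from 14514764 to 14529322 on chromosome 19, so its separate starts cannot be told apart.

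DNAJB4 and DNAJB5 are the members closest to DNAJB1 in protein family. DNAJB4 was at 8.22, 9.12 and 10.9 RPKM in shCTL 1, 2 and 3 and at 6.68, 7.17 and 8.63 RPKM in shHSF1 1, 2 and 3. The groups overlapped, since shHSF1 3 stood above shCTL 1, but within pairs the log2 differences were -0.28, -0.33 and -0.32. DNAJB4 was not called on group alone (log2 fold change -0.31, limma adjusted p = 0.112), and it was called without shHSF1 3 (0.0430) and with the replicate block (0.00875). It shares 48 exon bases, 1.29% of its exon length, with FUBP1 on the opposite strand, with mean RPKM of 25.1 (shCTL) and 25.4 (shHSF1).

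DNAJB5 was at 5.19, 6.29 and 5.29 RPKM in shCTL 1, 2 and 3 and at 4.55, 5.09 and 4.91 RPKM in shHSF1 1, 2 and 3. The groups lay next to each other without overlap. The difference was not called (log2 fold change -0.18, 95% interval -0.43 to 0.06, limma adjusted p = 0.221), nor was it with the replicate block (0.0956).

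DNAJB2 and DNAJB6 are class B members known for handling proteins prone to aggregate. DNAJB2, which binds ubiquitin and steers clients to the proteasome, is best known from neurons. It held 6.74, 7.99 and 6.94 RPKM in shCTL 1, 2 and 3 and 4.81, 4.82 and 3.95 RPKM in shHSF1 1, 2 and 3. All shHSF1 libraries were well below all shCTL libraries. The mean fell from 7.22 ± 0.672 to 4.53 ± 0.496 RPKM (SD, n = 3), a log2 fold change of -0.62 (SE 0.113, limma adjusted p = 0.00463). Leaving out each library in turn never ended the call (adjusted p from limma between 0.00815 and 0.0196).

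DNAJB6, which keeps polyglutamine proteins from clumping, was the second most abundant member and had 3 GAA units upstream of its start. It held 134, 124 and 128 RPKM in shCTL 1, 2 and 3 and 109.5, 112 and 119 RPKM in shHSF1 1, 2 and 3. The groups did not overlap, but their gap was small. The log2 fold change of -0.18 (95% interval -0.34 to -0.02) was not called (limma adjusted p = 0.0773). It was called with the replicate block (0.0353), with quantile normalization (0.0445) and with neighbouring genes centred (0.0108).

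DNAJB12 and DNAJB14 are related proteins of the endoplasmic reticulum membrane, whose J domains face the cytosol and work with HSP70 there in the disposal of membrane proteins. They moved in opposite directions. DNAJB12 held 11.5, 10.9 and 11.6 RPKM in shCTL 1, 2 and 3 and 15.5, 14.7 and 13.8 RPKM in shHSF1 1, 2 and 3. It rose from 11.3 ± 0.380 to 14.7 ± 0.868 RPKM (SD, n = 3), a log2 fold change of 0.36 (SE 0.0792, limma adjusted p = 0.0108), and leaving out each library in turn never ended its call (0.0474 at most).

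DNAJB14 held 9.16, 11.6 and 11.9 RPKM in shCTL 1, 2 and 3 and 5.46, 6.57 and 7.60 RPKM in shHSF1 1, 2 and 3. It fell from 10.9 ± 1.52 to 6.54 ± 1.07 RPKM (SD, n = 3), a log2 fold change of -0.70 (SE 0.145, limma adjusted p = 0.00822), again without any 1 library deciding the call (up to 0.0372). In every shHSF1 library DNAJB14 was the lower gene of the pair. The ratio of DNAJB14 to DNAJB12 in RPKM was 0.798, 1.07 and 1.03 in shCTL 1, 2 and 3 and 0.351, 0.447 and 0.552 in shHSF1 1, 2 and 3.

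**Figure D3:**
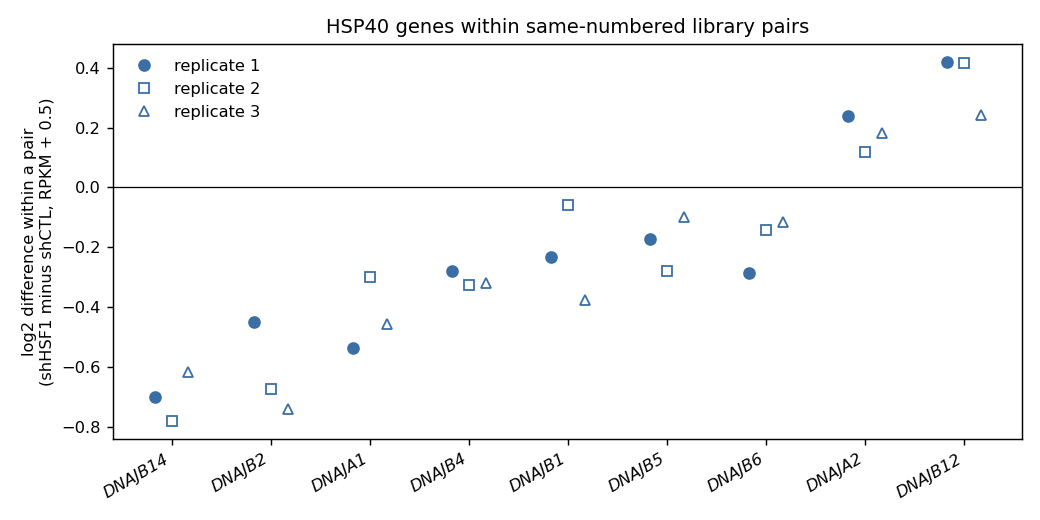
Difference in log2(RPKM + 0.5) between shHSF1 and shCTL within each same-numbered library pair, for the 9 tested HSP40 genes (1 symbol per replicate number). In all 3 pairs 7 genes lie below 0, and DNAJA2 and DNAJB12 lie above it.

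The 2 members with the largest falls lie where neighbouring genes were lower too. For each member the median log2 fold change of the 40 nearest tested genes on its chromosome, 20 on each side, was taken. This median was -0.51 around DNAJB14 on chromosome 4 and -0.44 around DNAJB2 on chromosome 2, and between -0.0025 and 0.14 around the other 7 tested members. When the shHSF1 values were centred on these medians, the log2 fold change was -0.19 for DNAJB14 (limma adjusted p = 0.368) and -0.18 for DNAJB2 (0.283), so both calls ended. The part of the neighbourhood in these 2 falls was not tested otherwise. In the same fit DNAJA1 (log2 fold change -0.43, limma adjusted p = 0.0307) and DNAJB6 (-0.33, 0.0108) were called lower and DNAJB12 (0.27, 0.0417) higher. That fit called 14.5% of all tested genes lower and 12.6% higher.

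**Figure D4:**
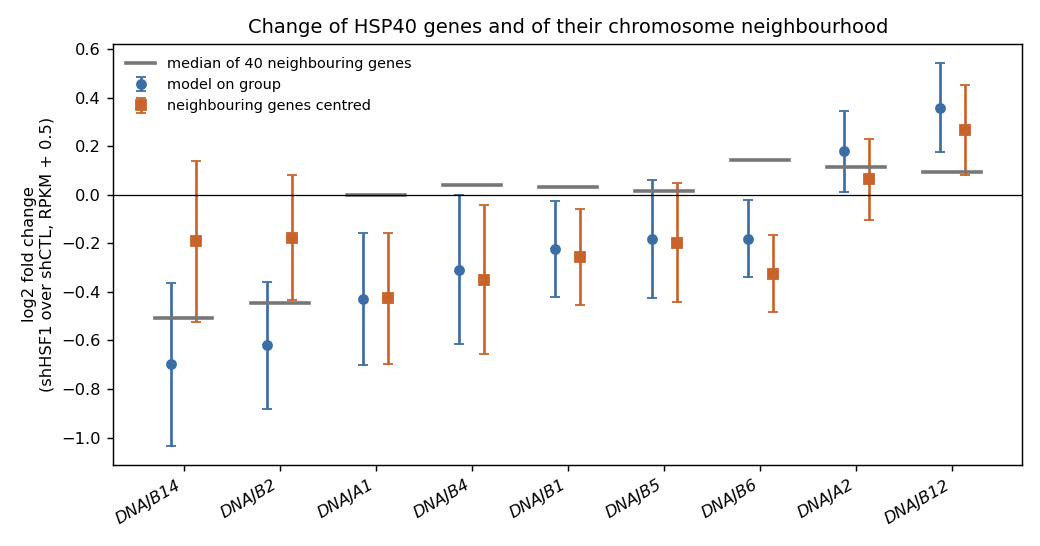
Log2 fold change of the 9 tested HSP40 genes (shHSF1 over shCTL, on RPKM + 0.5) with 95% intervals, from the model on group (blue) and with neighbouring genes centred (orange); grey bars are medians of 40 neighbouring genes. For DNAJB14 and DNAJB2 the grey bar lies near the blue point, at -0.51 and -0.44.

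Over the 6 libraries, the profile of DNAJB1 was most like those of CXorf40B, USF1, CXorf40A, MIEF1 and VPS45. Likeness was the root mean square difference between centred log2 profiles, which was between 0.0289 and 0.0369 for these 5 genes and had a median of 0.227 over the 11301 genes compared. CXorf40A and CXorf40B are near-identical copies, so the division of reads between them is uncertain. Among the members, DNAJB6 was nearest to DNAJB1 by this measure (0.112) and DNAJB14 farthest from it (0.333).

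The genes that HSP40 proteins work with are given beside the share of all tested genes, of which 16.1% were called lower and 17.7% higher, and no list was tested against the members. In the HSP70 family, 3 of 8 tested genes were called lower, 1 higher and 4 were not called, and the median log2 fold change was 0.03. Among those not called was HSPA1B, at mean RPKM of 0.808 (shCTL) and 0.798 (shHSF1). Its exons are listed again on alternate contigs, as are those of HSPA1A and HSPA1L, which were under the filter. Whether this listing cost these genes reads was not tested, so their values need not show their true levels or changes. HSPA8, the constitutive HSP70 of the cytosol and main partner of these HSP40 proteins, fell from 1127 ± 227 to 770 ± 71.8 RPKM (SD, n = 3), by 0.53 on the log2 scale (limma adjusted p = 0.0349). Only leaving out shCTL 2 kept this call, and the other 5 omissions ended it (up to 0.114), as did centring on neighbouring genes (0.227). HSPA8 was called with the replicate block (limma adjusted p = 0.00171). Its promoter window held 2 matches of the 3-unit form, which may overlap. The summed RPKM of the HSP40 members was 0.401, 0.536 and 0.448 times that of HSPA8 in shCTL 1, 2 and 3 and 0.514, 0.606 and 0.546 times in shHSF1 1, 2 and 3. These ranges overlap, and the ratio was higher in shHSF1 in all 3 same-numbered pairs. HSPA5, the HSP70 of the endoplasmic reticulum, fell from 364 to 224 RPKM (limma adjusted p = 0.0399, and 0.000726 with the replicate block). Its call on group alone was lost without any library but shCTL 1. HSPA12A, a distant relative and the remaining gene called lower, was at 0.938, 1.24 and 0.755 RPKM in shCTL 1, 2 and 3 and 0.187, 0.142 and 0.127 RPKM in shHSF1 1, 2 and 3. HSPA12A passed the filter only through the shCTL libraries, so its call had to show a difference. It is among the 3 genes called lower and in the median above, but its call is no support for a fall. HSPA2, known from the testis, rose from 1.46 to 2.05 RPKM (limma adjusted p = 0.0241, and 0.0190 with the replicate block). Its call on group alone was lost without any library but shCTL 1, and with neighbouring genes centred (0.156).

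Among 16 tested nucleotide exchange factors and other HSP70 partners, 3 (18.8%) fell, 1 (6.25%) rose and 12 were not called, and the median log2 fold change was -0.05. HSPH1, which releases ADP from HSP70 and joins DNAJB1 in disaggregation, had a log2 fold change of -1.18 (limma adjusted p = 8.36e-05), beyond that of any HSP40 member. HSPA4L, a relative of HSPH1, fell by 0.80 on the log2 scale (limma adjusted p = 0.000398). It lies on chromosome 4, where its neighbours had a median log2 fold change of -0.39, and with neighbouring genes centred its own was -0.41 (limma adjusted p = 0.00979). STIP1, which links HSP70 to HSP90, fell from 119 to 96.5 RPKM (limma adjusted p = 0.0367, and 0.00457 with the replicate block). Its call on group alone ended on omitting shCTL 1 or 3 or shHSF1 1 or 2 (0.135 at most). BAG5 rose from 16.7 to 20.3 RPKM (limma adjusted p = 0.0252, and 0.00875 with the replicate block). Its call on group alone ended on omitting shCTL 2 or 3 or shHSF1 1 or 2 (0.0826 at most) and with neighbouring genes centred (0.284). Of 4 HSP90 genes, which take clients on from HSP70, HSP90AA1 (log2 fold change -0.46, limma adjusted p = 0.00737) and HSP90AB1 (-0.31, 0.0212) fell, and 2 did not pass the test. The HSP90AB1 call ended on omitting shCTL 1 or 3 or shHSF1 2 (0.0893 at most). HSP90AB1 was called with the replicate block (limma adjusted p = 0.00335).

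Calls in the wider J domain family were near the share of all genes. Most DNAJC genes, though not all, share little with HSP40 beyond the J domain. Of 28 tested DNAJC genes, 4 fell and 4 rose (14.3% each, beside 16.1% and 17.7% of all tested genes) and 20 were not called. Their median log2 fold change was 0.00. DNAJC18 fell from 4.80 to 2.84 RPKM (limma adjusted p = 0.00352). DNAJC13, which acts with HSP70 on endosomes, fell from 20.3 to 14.6 RPKM (limma adjusted p = 0.00219), and DNAJC10, a disulfide reductase of the endoplasmic reticulum, from 46.5 to 33.4 RPKM (limma adjusted p = 0.0230). DNAJC6, an auxilin that strips clathrin coats, rose from 4.27 to 7.43 RPKM (limma adjusted p = 0.00344). DNAJC3, an inhibitor of the kinase PERK, rose from 19.2 to 30.4 RPKM (limma adjusted p = 0.000731), and HSCB, which delivers iron-sulfur clusters, from 3.82 to 5.15 RPKM (limma adjusted p = 0.0171). The call of DNAJC10 ended on omitting shCTL 2 or 3 or shHSF1 1 or 2 (0.0776 at most) and that of HSCB on omitting shCTL 2 or 3 or shHSF1 1 (0.0774 at most). Both were called with the replicate block (limma adjusted p = 0.00403 for DNAJC10 and 0.00746 for HSCB). Centring on neighbouring genes ended the calls of DNAJC10 (0.556), DNAJC3 (0.0697) and HSCB (0.0608).

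Of 7 other DNAJA and DNAJB genes, 5 were under the expression filter. One of them, DNAJA3, a mitochondrial member at 0 reads in 5 libraries, has its exons listed again on alternate contigs. Whether this listing cost DNAJA3 reads was not tested, so its values need not mean that the gene was silent. The tested ones were both of the endoplasmic reticulum and neither passed the test. DNAJB11, a helper of HSPA5, had mean RPKM of 71.0 (shCTL) and 78.5 (shHSF1; limma adjusted p = 0.308). DNAJB9, a stress-induced partner of HSPA5 named after its values were seen, was at 8.71, 14.3 and 14.5 RPKM in shCTL 1, 2 and 3 and at 5.95, 8.68 and 8.97 RPKM in shHSF1 1, 2 and 3. Its limma adjusted p was 0.0644 on group alone and 0.000690 with the replicate block.

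**Figure D5:**
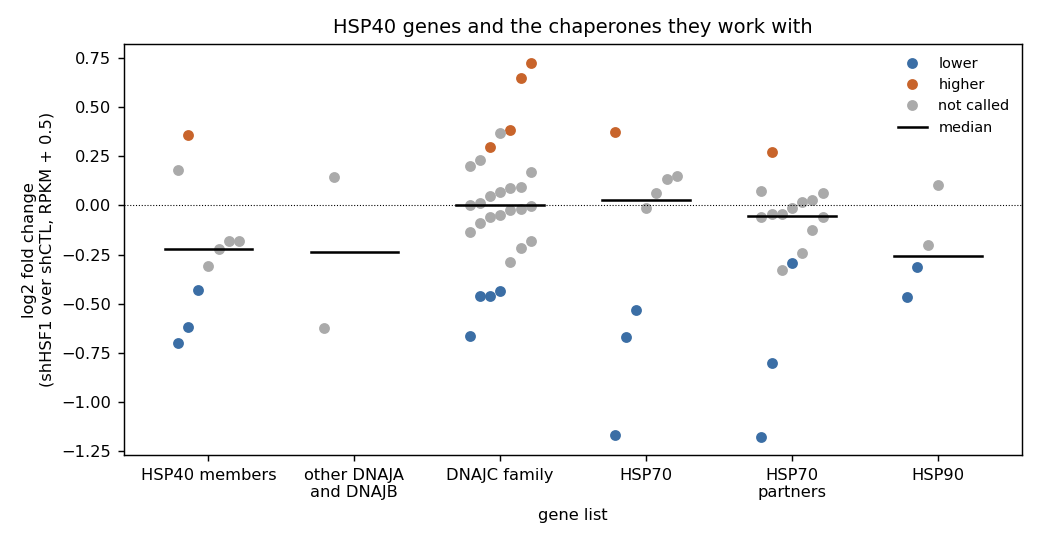
Log2 fold change (shHSF1 over shCTL, on RPKM + 0.5) of each tested gene in the HSP40 members and in related chaperone lists; colours mark limma calls and black bars the median of each list. HSP40 members have a median of -0.22, the DNAJC family lies around 0, and the lowest points are HSPH1 and HSPA12A, the latter past the filter only through its shCTL libraries.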

How the data were processed

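RNA of 3 shCTL and 3 shHSF1 libraries of MDA-MB-231 cells was purified with a Qiagen RNeasy kit and sequenced from KAPA mRNA libraries, per the labels' protocols. The authors deposited RPKM values for 28058 genes, made with STAR and featureCounts on hg38 per the submitters' processing notes. Versions, annotation and strandedness were not given in the sources used here, and genes overlapping on opposite strands could share reads. Samples were grouped by title; table columns named shScr were taken as shCTL, since shHSF1 is the other hairpin. In every column the values times gene length were whole multiples of 1 read (100% within 0.01), which gave the reads.

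The filter kept genes reaching 0.5 RPKM in 3 or more libraries (12433). limma 3.58.1 in R 4.3.3 was run on log2(RPKM + 0.5) with a group model, a mean-variance trend, two-sided p-values, Benjamini-Hochberg adjustment and a threshold of 0.05. The fit was tested on simulated libraries without pairing or shifts shared by neighbouring genes, so that test does not cover these features. Deviations from group means correlated at 0.468, 0.307 and 0.451 between same-numbered libraries and from -0.370 to -0.0200 between others. Such deviations cancel out within a group for each gene, so the negative values partly follow from the positive ones. Same-numbered libraries were treated as pairs because of the positive values. Column names give same-numbered libraries the same number after the letters cl and consecutive numbers after the letter S; no source used here says what these mark, so the pairing rests on the values. Members and lists were chosen with earlier results of these data known. Named genes were the 10 members, HSF1, up to 3 genes per direction and list with the largest called change (or, with no call, the most abundant), and the 5 genes most like DNAJB1. Alternatives were other filters, pseudocounts of 0.1 and 1, median and quantile scaling, the replicate block, leaving out each library, limma-voom on the reads with trimmed mean (TMM) scaling, no trend, and centring on neighbouring genes. Figures used matplotlib 3.10.9.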

Additional observations from a re-analysis of the deposited data

How the results depend on the processing

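Each of the 9 tested HSP40 genes kept its direction, and DNAJB12 its call, in all 16 alternatives. The count of members called lower was 3; it was 6 with the replicate block and from 2 to 4 without 1 library. The count called higher was 1; it was 2 with the block. The block ended no call of a member. The DNAJA1 call was also lost without a filter on low values (limma adjusted p = 0.0627), where more genes were tested. Over all genes, 2195 were called higher and 2006 lower, and without 1 library from 1250 to 2213 higher and from 1211 to 1937 lower; the lowest counts were those without shHSF1 2 (higher) and without shCTL 3 (lower), and the cause was not tested. HSF1 kept its call throughout (log2 fold change from -3.61 to -3.17). DNAJA4, with 1 read in shCTL 3 and 0 reads in every other library, could not be compared.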

Other observations

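The libraries of the control group did not rank alike for all chaperones, a pattern noticed after the values were seen and given without a test. The library shCTL 2 was the lowest of the 3 shCTL libraries for DNAJA1 (171 RPKM), DNAJB6 (124 RPKM), DNAJB1 (93.9 RPKM) and DNAJB12 (10.9 RPKM). It was also the lowest for HSPA8 (877 RPKM), HSPH1 (59.4 RPKM), STIP1 (106 RPKM) and HSP90AA1 (603 RPKM). For DNAJB2 (7.99 RPKM), DNAJB5 (6.29 RPKM) and HSPA5 (454 RPKM) it was instead the highest. The pattern was partly shared by the same-numbered knockdown library. Within its group, shHSF1 2 was also lowest for DNAJA1, HSPA8, STIP1 and HSP90AA1 and highest for DNAJB2, DNAJB5 and HSPA5. It was not lowest for DNAJB6, DNAJB1, DNAJB12 or HSPH1. HSF1 itself was at 61.2, 53.3 and 47.9 RPKM in shCTL 1, 2 and 3, with shCTL 2 in the middle.

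Over all tested genes, 44 had 3 GAA units in a promoter window, DNAJA1 and DNAJB6 among them. Of these, 12 (27.3%) were called lower and 9 (20.5%) higher, beside 16.5% and 18.1% of the 9359 tested genes with a window, and the difference was not tested. The median log2 fold change was -0.0003 over the 44 genes and 0.0403 over the 9359 genes. In the related lists the 3-unit form was in windows of HSPA8, HSPA6, HSP90AA1 and HSP90AB1. Of genes with a window, it was in none of 27 DNAJC genes, 12 HSP70 partners and 6 other DNAJA and DNAJB genes. The window of HSPH1, which had a log2 fold change of -1.18, held neither the 3-unit nor the 2-unit form. HSPA6, a strictly stress-induced HSP70 gene, was under the expression filter, at 0.307, 0.651 and 0.508 RPKM in shCTL 1, 2 and 3 and 0.0796, 0.131 and 0.0873 RPKM in shHSF1 1, 2 and 3.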
